A study of Mus musculus with 6 samples.

Results

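Interferon response genes are the genes through which a cell receives an interferon signal and the genes that the signal switches on. A set of 45 such mouse genes was taken by gene symbol and followed in long-term hematopoietic stem cells (LT-HSCs). All 45 were found among the 27179 genes of the count table, and all but Isg15 were among the 12179 genes of the normalized table. RNA-Seq compared LT-HSCs (CD150+CD48- LSK cells, that is lineage-negative cells with c-Kit and Sca-1) sorted from bone marrow of C57BL/6 mice at 8 weeks of age, 3 WT and 3 Foxm1 heterozygous (Foxm1 HET) libraries. Foxm1 is a transcription factor of cell division, and the comparison asks which genes differ in LT-HSCs that keep 1 working copy of it. The labels give no treatment. The Foxm1 HET libraries have titles that name a floxed allele without a Cre driver, and the driver used for the sequenced mice is not given in the sources used here. The study made Foxm1 HET mice with Tie2-Cre, which acts in blood and endothelial cells. In the methods of other assays it uses Foxm1 HET for Tie2-Cre Foxm1fl/+ mice and WT for Foxm1fl/+ mice. To exclude an influence of Tie2-Cre it also used Mx1-Cre, whose promoter belongs to an interferon-induced gene. Mx1-Cre was switched on with poly(I:C), an agent that mimics viral RNA. The study's methods speak of 3 pairs of mice, and the labels do not say which libraries form a pair or whether a library came from 1 mouse, so the p-values below measure the spread between these libraries.

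Type I interferons bind the receptor pair Ifnar1 and Ifnar2, and interferon gamma binds Ifngr1 and Ifngr2. Both receptors work through Janus kinases and STAT proteins. The type I signal acts, with Stat2 and Irf9, at the interferon-stimulated response element (ISRE), and the gamma signal acts at the gamma-activated site (GAS). The genes so induced encode sensors of foreign nucleic acid, proteins that block viral entry or replication, and parts of the antigen presentation machinery. In hematopoietic stem cells, interferons are known to drive quiescent cells into division, and stem cells are known to hold some interferon-stimulated genes at a high level in the absence of infection.

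The binding letters of both elements were searched for in the promoters of the set, since the interferon signals act at these elements. RefSeq promoters of the GRCm38.p6 build, which run from 250 bases before to 50 bases after a transcript start, were given for 38 of the 45 genes. The ISRE core, taken as GAAA, any 2 bases and GAAA again and read on both strands, was found in 16 of the 38 genes, or 42.1%, against 3.99% of all 27025 genes with a promoter. The GAS core TTCNNNGAA, which reads alike on both strands, was found in 12 of the 38, or 31.6%, against 9.55% of all genes. Both cores occurred in 4 of the promoters, and in 2 of these they overlapped. A match describes the letters of this window and does not show that a factor binds there.

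The windows below hold the ISRE core in the genes on which the results turn, and in Isg15, which was at 0 reads in every library. Each is written 5′ to 3′ on the strand of the gene, with the matching letters in capitals.
B2m (chr2:122147538-122147567, plus strand): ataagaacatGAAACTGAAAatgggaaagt
Ifih1 (chr2:62646206-62646233, minus strand): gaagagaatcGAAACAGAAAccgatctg
Irf2 (chr8:46739495-46739523, plus strand): tggggaagtGAAAATGAAAttgacttttc
Ifitm3 (chr7:141010706-141010735, minus strand): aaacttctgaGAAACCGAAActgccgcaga
Ifitm2 (chr7:140955988-140956017, minus strand): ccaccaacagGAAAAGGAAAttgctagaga
Ddx58 (chr4:40239804-40239833, minus strand): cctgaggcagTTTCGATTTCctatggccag
Stat2 (chr10:128270266-128270295, plus strand): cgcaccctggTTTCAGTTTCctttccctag
Gbp2 (chr3:142620594-142620623, plus strand): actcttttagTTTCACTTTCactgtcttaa
Isg15 (chr4:156200871-156200900, minus strand): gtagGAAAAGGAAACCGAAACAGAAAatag

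The Isg15 window holds 3 overlapping matches, and the Ddx58, Stat2 and Gbp2 windows hold the core on the other strand. The GAS core is shown for Irf1, a known target of the gamma signal, for Psmb8 and for the receptor gene Ifnar2.
Irf1 (chr11:53769914-53769942, plus strand): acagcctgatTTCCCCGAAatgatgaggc
Psmb8 (chr17:34198088-34198116, plus strand): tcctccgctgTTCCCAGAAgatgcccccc
Ifnar2 (chr16:91372559-91372587, plus strand): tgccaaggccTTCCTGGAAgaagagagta

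Neither core was matched in the promoter windows of Xaf1, Psmb9, Tap1, Ifitm1, Oasl2 or Jak1.

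Reads counted on genes came to between 20077023 and 23012808 in the WT libraries and to between 14573002 and 25798509 in the Foxm1 HET libraries. Foxm1 itself had 1182, 2615 and 2942 reads across WT libraries, against 659, 5 and 742 across Foxm1 HET libraries. Values below are likewise given in the order of replicates 1, 2 and 3. Foxm1 HET replicate 2 stood apart. It had the smallest total, and 4467 of its genes reached 10 reads against between 5963 and 9894 in the others, and its TMM scaling factor was 0.453 against between 0.757 and 1.67. Of 10 markers of LT-HSCs, such as Kit, Hlf and Mecom, between 8 and 10 were over 3 reads in each library. Slamf1, which encodes the CD150 used to sort the cells, was not detected evenly. It had 2, 1572 and 0 reads across WT libraries, against 8, 0 and 543 across Foxm1 HET libraries. All 8 neutrophil markers, among them Mpo, Ngp and S100a9, were over 3 reads in every library. Their summed level was 22170, 16090 and 35710 TPM (reads scaled by gene length and by the library total) in WT and 18380, 14290 and 3032 in Foxm1 HET. Of the 8, S100a9 was lower in each Foxm1 HET library than in each WT library once scaled. Its log2 fold change was -1.93 (adjusted p = 0.961 by edgeR's quasi-likelihood test). Tek (an LT-HSC marker, log2 fold change 3.61) and Car1 (erythroid, 3.09) were higher in each Foxm1 HET library than in each WT library. Their adjusted p was 0.982 and 0.941 in the same test. Of 8195 genes tested, 4.55% were lower in such a way, and 8.68% did not overlap in either direction. Mecom of the LT-HSC markers overlapped between genotypes (log2 fold change 3.91, unadjusted p = 0.0142, adjusted p = 0.555 by that test). Monocyte and macrophage markers summed to 7870, 3854 and 7086 TPM in WT and 7767, 1813 and 1696 in Foxm1 HET, with C1qa and C1qb at 0 throughout. Plasmacytoid dendritic cell markers summed to at most 153 TPM, and B cell markers to at most 165 TPM. In bulk RNA, fewer cells of a type and less RNA per cell cannot be told apart.

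The interferon response genes of the set were detected more widely than the genes of the count table as a whole. All but Isg15 were among the 12179 normalized genes, and 53.5% of the 27179 counted genes reached 10 reads in no library. The comparison therefore does not set these genes apart from other expressed genes. Of the 45 genes, 11 (24.4%) had at least 10 reads in all 6 libraries, against 9.26% of all genes. At least 10 reads were found for 35, 34 and 28 of them in WT and for 42, 17 and 43 in Foxm1 HET. In Foxm1 HET replicate 2, 25 of the 45 genes had 3 reads or fewer, while 9 had at least 1000. In the other 5 libraries, between 2 and 14 genes had 3 reads or fewer and between 16 and 23 had at least 1000. The median gene of the set thus had 2 reads in Foxm1 HET replicate 2 and between 127 and 1019 in the others. A count of 3 reads corresponds to between 0.116 and 0.206 CPM (reads scaled by the library total alone), depending on the library, and smaller levels were not detectable. This limit covers counting error only, because amplified copies of one molecule are counted as separate reads.

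**Figure D1:**
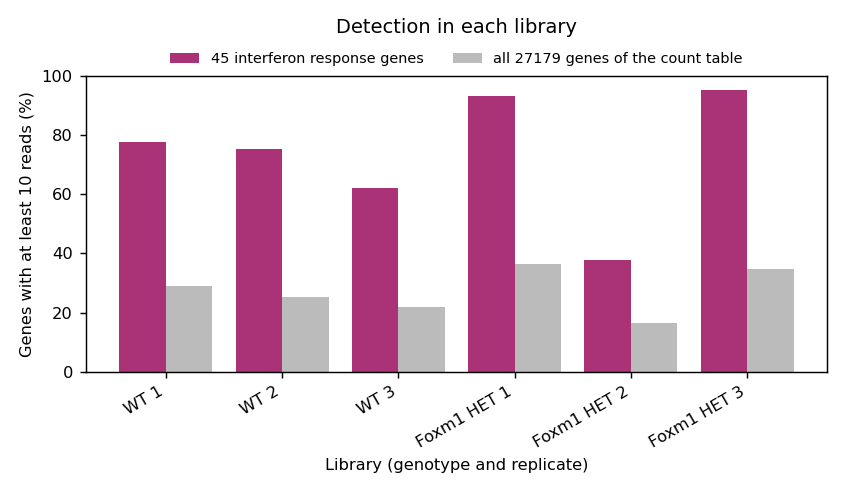
Share of genes with at least 10 reads in each library, in percent, for the 45 interferon response genes (purple) and for all 27179 genes of the count table (grey). The purple bars exceed the grey bars in all 6 libraries and fall to 37.8% in Foxm1 HET replicate 2, against between 62.2% and 95.6% in the others.

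The set as a whole held between 0.441% and 0.548% of the reads in WT and between 0.479% and 0.696% in Foxm1 HET. The highest share was in Foxm1 HET replicate 2. Without B2m, the set held 0.531% of that library and between 0.288% and 0.365% of the others. B2m was the largest contributor in 5 libraries. In Foxm1 HET replicate 2 the largest was Ifih1, with 28.5% of the reads of the set. Leaving B2m out, the largest single contributor changed from library to library: Jak1, Ifitm3 and Ifitm1 in WT and Trim25, Ifih1 and Jak1 in Foxm1 HET.

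**Figure D2:**
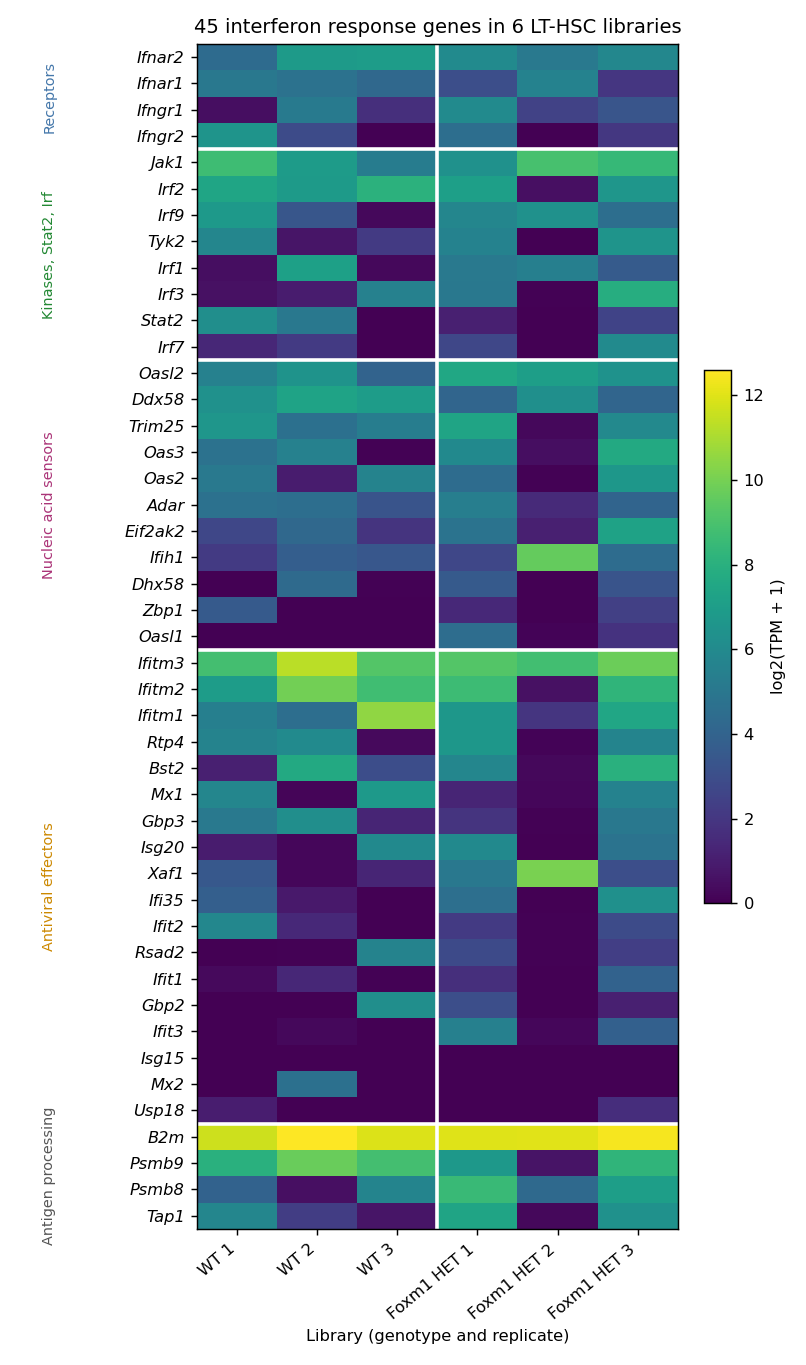
Level of each of the 45 genes (rows, grouped by role) in the 6 libraries (columns), as log2(TPM + 1), with the colour scale running from 0 (dark) to above 12 (yellow). B2m is the brightest row in all libraries, many genes alternate between dark and bright within a genotype, and the column of Foxm1 HET replicate 2 is dark for most rows but bright for Ifih1 and Xaf1.

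Genotypes were compared over all 8195 genes that passed edgeR's filter on low counts, with the quasi-likelihood test and Benjamini-Hochberg adjustment. Of the 45 interferon response genes, 40 passed the filter, and 1 of these, Xaf1, had an adjusted p under 0.05. The share of all tested genes with such a p was 0.329%, and 0.317% were higher in Foxm1 HET. At an unadjusted p under 0.05 there were 2 of the 40, Xaf1 and Ifih1, both with more reads in Foxm1 HET, against 6.03% of all genes tested in either direction and 3.44% in this one. The log2 fold change of Foxm1 HET over WT was above 0 for 17 of the 40 and below 0 for 23. It was above 0 for 45.4% of all tested genes and for 42.5% of the set. With upper-quartile scaling 21 of the 40 were above 0, and with library size as the only scaling 23 were. These scalings moved the median of all genes tested to 0.14 and 0.10 and that of the set to 0.23 and 0.24. The median of the 40 was -0.17, beside a median of -0.26 over all genes tested, and their median standard error (SE) was 2.33. The 3 libraries of one genotype lay wholly on one side of the other for 2 of the 40, Psmb9 and Irf2, both lower in Foxm1 HET, against 4.55% of all tested genes that were lower in this way and 8.68% in either direction. These shares of the set are near those of all genes for the unadjusted p, the direction and the overlap.

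Levels varied widely between libraries. The standard deviation (SD) of log2 CPM over the 6 libraries had a median of 3.34 in the set and of 3.20 over all genes tested. In the set, the highest and the lowest library of a gene were a median of 8.49 log2 units apart. For 8 of the 40 genes (20%), and for 1480 of all 8195 genes tested, the edgeR fold change and the difference of the mean log2 CPM had opposite signs. The first follows the mean of the scaled counts and so the library in which the gene is highest, and the second weighs the libraries equally.

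**Figure D3:**
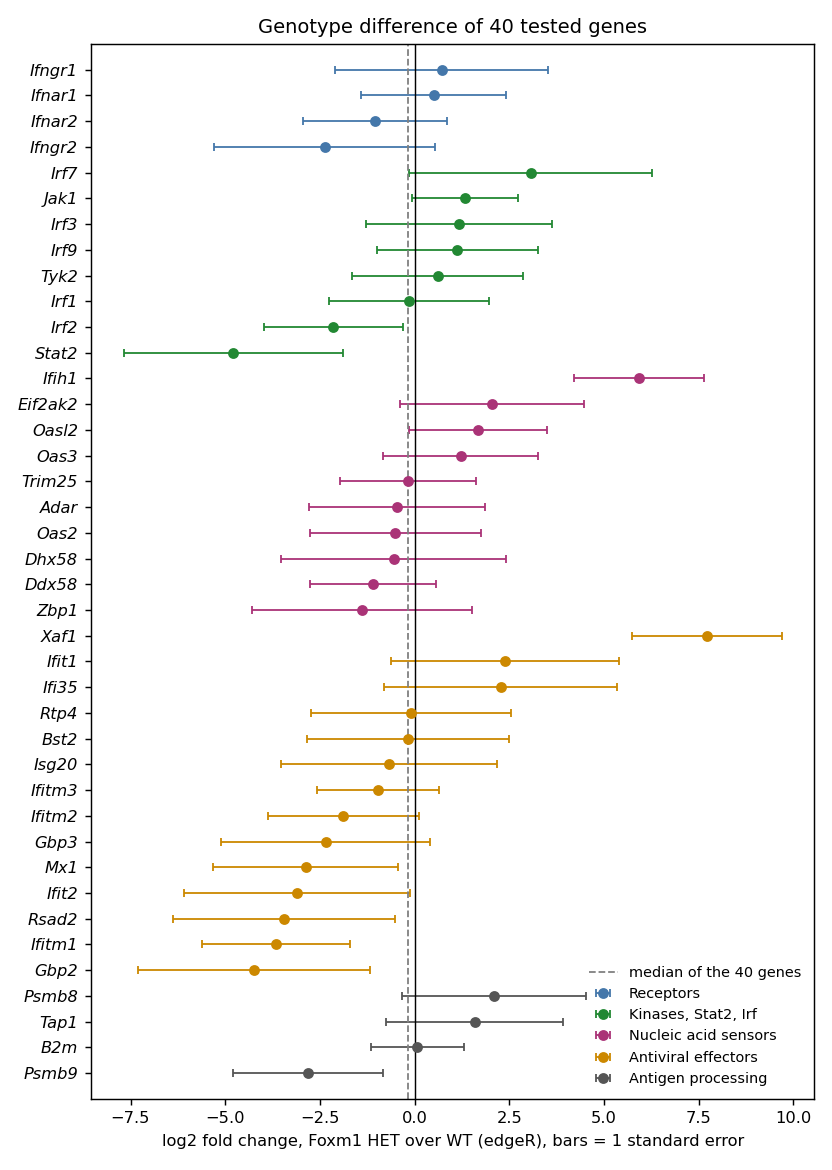
Log2 fold change of Foxm1 HET over WT from edgeR for the 40 genes tested, coloured by role, with bars of 1 SE and a dashed line at the median of the 40 (-0.17). Points lie on both sides of 0 in every role group, and Xaf1 (7.71) and Ifih1 (5.91) stand farthest to the right.

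Xaf1, which encodes a partner of the apoptosis inhibitor XIAP and is induced by interferon, rose in the edgeR fit. It lies on chromosome 11 of GRCm38 from 72301629 to 72313733 (gene ID 327959). Its read counts were 240, 4 and 42 across WT libraries, against 1004, 18313 and 198 across Foxm1 HET libraries. Most of its Foxm1 HET reads came from replicate 2, where its level was 1063 TPM, and the lowest Foxm1 HET count was below the highest WT count. edgeR estimated a log2 fold change of 7.71 (SE 1.98, adjusted p = 0.0377 by edgeR's quasi-likelihood test). On average it had a log2 CPM of 0.979 ± 2.73 (SD, n = 3) for WT, and 6.15 ± 4.76 (SD, n = 3) for Foxm1 HET, and a two-sided exact permutation test of this difference gave p = 0.2. Without Foxm1 HET replicate 2 the log2 fold change was 1.86 (adjusted p = 0.9998). Without WT replicate 1, 2 or 3 it was 9.38, 7.11 or 7.43, with an adjusted p of 0.176, 0.393 or 0.343. The adjusted p was 0.125 with RLE scaling and 0.224 with library size as the only scaling, and over the alternatives that gave one it ran from 0.0147 to 1. DESeq2 gave Xaf1 no p.

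Ifih1, the cytoplasmic sensor of long double-stranded RNA also known as MDA5, had a like pattern across libraries. It lies on chromosome 2 from 62595793 to 62646255 on the minus strand (gene ID 71586), and no stretch of 50 bases in its transcripts is shared with another annotated gene. It had 176, 683 and 584 reads across WT libraries, against 358, 28918 and 1254 across Foxm1 HET libraries. Foxm1 HET replicate 1 was within the WT range, replicate 3 was above the highest WT count, and replicate 2 was far above all others at 790.0 TPM. Once scaled, replicate 3 was also within the WT range, at 4.91 log2 CPM against 5.19 in WT replicate 3, and replicate 2 alone exceeded it. edgeR estimated a log2 fold change of 5.91 (SE 1.72, unadjusted p = 0.000572, adjusted p = 0.0985 by edgeR's quasi-likelihood test). Without Foxm1 HET replicate 2 its sign turned, to a log2 fold change of -0.24 (SE 2.65). In the exact permutation test, two-sided, the genotypes gave p = 0.7. With upper-quartile scaling the adjusted p was 0.0442, and over the alternatives that gave one it ran from 0.0442 to 1. DESeq2 gave Ifih1 no p.

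Among the receptors, all 4 genes were tested, with 2 above and 2 below 0. Ifnar2, the ligand-binding chain of the type I receptor, had 601, 3586 and 4288 reads across WT libraries, against 2476, 705 and 1940 across Foxm1 HET libraries. Its Foxm1 HET libraries all fell within the WT range (log2 fold change -1.04, SE 1.90). Ifnar1, the other chain, had 2081, 1772 and 1343 reads across WT libraries, against 616, 2213 and 223 across Foxm1 HET libraries. The WT libraries of Ifnar1 were close together, at 6.42 ± 0.132 log2 CPM (SD, n = 3), and the Foxm1 HET libraries were spread on both sides of them, at 4.96 ± 3.10 (SD, n = 3). Its log2 fold change was 0.50 (SE 1.91) with all libraries and -2.90 without Foxm1 HET replicate 2, and it was also below 0 with library size as the only scaling.

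Ifngr2, the signalling chain of the interferon gamma receptor, was detected unevenly in both genotypes. It had 1765, 128 and 0 reads across WT libraries, against 561, 0 and 71 across Foxm1 HET libraries (log2 fold change -2.38, SE 2.91, and 1.08 without WT replicate 1). Ifngr1, the ligand-binding chain, ranged from 7 to 712 reads in WT and from 64 to 1629 in Foxm1 HET. Ifnar2, Ifnar1 and Ifngr2 lie side by side on chromosome 16, Ifnar1 at 79627 bases from Ifnar2 and Ifngr2 at 36570 bases from Ifnar1. Per gene length, Ifnar2 was the highest of these 3 neighbours in 4 libraries, Ifngr2 in WT replicate 1 (92.5 TPM) and Ifnar1 in Foxm1 HET replicate 2 (47.6 TPM).

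Of the 8 kinases, Stat2 and Irf genes, 5 were above and 3 below 0, with a median log2 fold change of 0.87. Jak1, the kinase shared by both interferon receptors and by many cytokine receptors, was the most abundant, at a mean of 247 TPM. It had 19891, 6205 and 2140 reads across WT libraries, against 5265, 17341 and 19698 across Foxm1 HET libraries, and the genotypes overlapped (log2 fold change 1.33, SE 1.41, and -0.43 without Foxm1 HET replicate 2). Of its exon bases, 7.49% also belong to Raver2 on the other strand. Tyk2, the kinase bound to Ifnar1, ranged from 30 to 2423 reads in WT and from 1 to 4761 in Foxm1 HET.

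Irf2, which binds the same element as Irf1 and represses interferon signalling, was lower in each Foxm1 HET library than in each WT library once scaled. It lies on chromosome 8 from 46739745 to 46847458 (gene ID 16363), and its promoter holds both cores. Its counts were 3910, 2807 and 7375 across WT libraries, against 4109, 7 and 2656 across Foxm1 HET libraries, so that before scaling Foxm1 HET replicate 1 was within the WT range. On average it had a log2 CPM of 7.76 ± 0.979 (SD, n = 3) for WT, and 4.32 ± 3.57 (SD, n = 3) for Foxm1 HET, with p = 0.1 in the two-sided exact permutation test, the smallest p that 3 libraries against 3 can give. In the fit its log2 fold change was -2.14 (SE 1.83, adjusted p = 0.985 by edgeR's quasi-likelihood test) and -1.46 without Foxm1 HET replicate 2. It stayed between -2.80 and -1.39 as each library was dropped in turn. With upper-quartile scaling, with library size as the only scaling, and on the deposited normalized values, the genotypes overlapped.

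Stat2, the STAT protein particular to type I and type III interferon signals, had the lowest log2 fold change of the set. It had 3035, 1392 and 0 reads across WT libraries, against 61, 0 and 232 across Foxm1 HET libraries. A WT library and a Foxm1 HET library were thus both at 0, a count that allows up to 3 reads per library. The log2 fold change was -4.79 (SE 2.89, adjusted p = 0.938 by edgeR's quasi-likelihood test), and it was between -6.18 and -3.54 as each library was dropped in turn.

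Irf7, the factor that amplifies the production of type I interferon, had 28, 63 and 0 reads across WT libraries, against 123, 0 and 1289 across Foxm1 HET libraries (log2 fold change 3.06, SE 3.20). Most of its reads were in Foxm1 HET replicate 3. Irf3, which starts that production, had 10, 20 and 1077 reads across WT libraries, against 843, 1 and 5503 across Foxm1 HET libraries (log2 fold change 1.16, SE 2.46, and -0.88 without Foxm1 HET replicate 3). Both genes overlapped between genotypes. The other members of the group, Irf1 and Irf9, ranged from 8 to 4758 and from 6 to 2687 reads in WT and from 410 to 1378 and from 644 to 1783 in Foxm1 HET. By reads, Irf1 and Irf9 were thus within the WT range in each Foxm1 HET library. Once scaled, Irf9 in Foxm1 HET replicate 2 was above that range, at 7.84 log2 CPM against 6.93 in WT replicate 1.

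Among the 11 sensors of nucleic acid and their partners, 10 were tested, 4 above and 6 below 0, with a median of -0.32. Ddx58, which encodes the RNA sensor RIG-I, had 3719, 7606 and 6604 reads across WT libraries, against 966, 2477 and 858 across Foxm1 HET libraries, so that each Foxm1 HET library had fewer reads than each WT library. After TMM scaling, Foxm1 HET replicate 2 moved into the WT range, with the means at 8.16 ± 0.679 log2 CPM (SD, n = 3) for WT, and 5.87 ± 2.35 (SD, n = 3) for Foxm1 HET (two-sided exact permutation test, p = 0.3). The log2 fold change was -1.10 (SE 1.66) with all libraries and -3.64 without Foxm1 HET replicate 2. Ddx58 was the 1 gene of the set with an unadjusted p under 0.05 when that library was left out, against 3.03% of all genes tested.

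Oasl2, a protein of the oligoadenylate synthetase family, averaged 91.0 TPM, and in this group only Ifih1 was higher. It had 1327, 2690 and 506 reads across WT libraries, against 6990, 2727 and 2846 across Foxm1 HET libraries. Each Foxm1 HET library had more reads than each WT library, but on the scale of log2 CPM the libraries of both genotypes overlapped (exact permutation test, two-sided, p = 0.2). The log2 fold change was 1.67 (SE 1.82) and stayed between 0.93 and 2.34 with each library left out. Its neighbour Oasl1, at 10994 bases, did not pass the filter and was not tested in the main fit. Oasl1 had 0 reads in every WT library and 567, 1 and 61 in Foxm1 HET.

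Oas2 and Oas3, synthetases of the messenger that activates RNase L, lie 3249 bases apart on chromosome 5. Oas3 had 1144, 2138 and 3 reads across WT libraries, against 3505, 12 and 10338 across Foxm1 HET libraries, and Oas2 had 1174, 36 and 2036 across WT libraries, against 995, 1 and 4240 across Foxm1 HET libraries. In WT replicate 3 the level was 49.1 TPM for Oas2 and 0.0593 for Oas3, and in WT replicate 2 the order was the opposite, with 0.940 and 45.7 TPM. Eif2ak2, the kinase PKR that stops translation in response to double-stranded RNA, ranged from 127 to 775 reads in WT and from 33 to 7156 in Foxm1 HET. Trim25, the ubiquitin ligase of RIG-I, had 5002, 1344 and 2347 reads across WT libraries, against 11232, 7 and 3579 across Foxm1 HET libraries. Adar, the editor of double-stranded RNA, ranged from 558 to 1395 reads in WT and from 74 to 3013 in Foxm1 HET. Dhx58, the regulator of both RNA sensors, ranged from 0 to 459 reads in WT and from 0 to 323 in Foxm1 HET, and Zbp1, the sensor of Z-form nucleic acid, from 0 to 213 and from 0 to 101.

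The antiviral effectors were the largest group, with 18 genes, and 14 of these were tested. Of the 14, 3 were above 0 (Xaf1, Ifit1 and Ifi35) and 11 below, with a median of -1.43, beside -0.26 over all genes tested. The share above 0 was 21.4%, beside 45.4% of all genes tested. Of the 11, Isg20, Rtp4 and Bst2 were above 0 with library size as the only scaling. Isg20, Ifit2, Ifitm1, Ifitm3, Rsad2, Rtp4, Bst2 and Gbp2 turned above 0 when a single library was left out. Only Ifitm2, Mx1 and Gbp3 stayed below 0 whichever library was dropped. Apart from Xaf1, none of the 14 had an unadjusted p under 0.05, and none had genotypes that did not overlap. The 3 Ifitm genes, whose proteins sit in membranes and block the entry of viruses, were the most abundant of the group. Ifitm3 averaged 913 TPM, the highest level of the set after B2m, with 2733, 16207 and 4121 reads across WT libraries, against 4787, 1866 and 6018 across Foxm1 HET libraries. It was over 1000 reads in all libraries, and on the log2 CPM scale its means were 8.15 ± 1.27 (SD, n = 3) for WT, and 7.44 ± 0.642 (SD, n = 3) for Foxm1 HET. The log2 fold change of Ifitm3 was -0.98 (SE 1.61) and 0.03 without WT replicate 2.

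Ifitm2 had 723, 5914 and 2837 reads across WT libraries, against 3006, 2 and 2037 across Foxm1 HET libraries (log2 fold change -1.88, SE 1.99). It was well detected in 2 Foxm1 HET libraries and was at the floor in replicate 2. Ifitm1 had 333, 189 and 13056 reads across WT libraries, against 1016, 16 and 1572 across Foxm1 HET libraries (log2 fold change -3.65, SE 1.96, adjusted p = 0.879 by edgeR's quasi-likelihood test). WT replicate 3 held most of the Ifitm1 reads, and without it the log2 fold change was 0.93. That library also had the highest sum of neutrophil markers, 35710 TPM, and the part of such cells in the Ifitm1 value was not tested. The 3 genes lie within one stretch of chromosome 7, Ifitm2 at 11467 bases from Ifitm1 and Ifitm1 at 39762 bases from Ifitm3. Of the 50-base stretches of their transcripts, 48.5% for Ifitm2, 10% for Ifitm3 and 5.02% for Ifitm1 also occur in other annotated genes, so that the division of reads between them and their copies is uncertain.

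Gbp2, a GTPase that attacks the vacuoles of intracellular pathogens, had 0, 0 and 1948 reads across WT libraries, against 216, 0 and 30 across Foxm1 HET libraries. Its log2 fold change of -4.24 (SE 3.07) rested on WT replicate 3 and was 8.81 without it. Its neighbour Gbp3 had 813, 1909 and 42 reads across WT libraries, against 88, 1 and 909 across Foxm1 HET libraries, so WT replicate 3, which held nearly all Gbp2 reads, had the fewest Gbp3 reads of its genotype.

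Several classical interferon-stimulated genes were at or near 0 in some libraries and well detected in others. Isg15, the ubiquitin-like protein that is attached to other proteins after interferon, was at 0 in all 6 libraries. Usp18, the enzyme that removes it, had 17, 0 and 0 reads across WT libraries, against 0, 0 and 41 across Foxm1 HET libraries. Ifit3, which with Ifit1 and Ifit2 binds foreign RNA, had 0, 4 and 0 reads across WT libraries, against 1051, 2 and 289 across Foxm1 HET libraries. Of the 50-base stretches of Ifit3 transcripts, 51.2% also occur in Ifit3b. Mx2 had 583 reads in WT replicate 2 and 0 elsewhere. These 4 genes and Oasl1 were the 5 of the set that did not pass the filter. Mx1 had 1354, 3 and 3120 reads across WT libraries, against 49, 3 and 1380 across Foxm1 HET libraries (log2 fold change -2.88, SE 2.45). Rsad2, the antiviral enzyme viperin, had 1, 2 and 1998 reads across WT libraries, against 280, 1 and 167 across Foxm1 HET libraries. Ifit1 and Ifit2 were at most 44 and 2044 reads in WT and at most 420 and 276 in Foxm1 HET. Bst2, the tether that holds budding viruses at the cell surface, ranged from 8 to 1524 reads in WT and from 1 to 2092 in Foxm1 HET. The remaining effectors overlapped too. Isg20, an RNA exonuclease, ranged from 2 to 787 reads in WT and from 0 to 880 in Foxm1 HET, Rtp4 from 4 to 993 and from 1 to 1919, and Ifi35 from 0 to 165 and from 0 to 1181.

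In antigen processing, 3 of the 4 genes were above and 1 below 0. B2m, the invariant chain of MHC class I, was the most abundant gene of the set, at a mean of 4547 TPM. It had 25110, 52898 and 36604 reads across WT libraries, against 42965, 24012 and 51656 across Foxm1 HET libraries. Its mean was 10.83 ± 0.594 log2 CPM (SD, n = 3) for WT, and 10.76 ± 0.956 (SD, n = 3) for Foxm1 HET, with the means closer than the spread of either genotype. The log2 fold change was 0.07 (SE 1.23), and its 95% interval ran from -2.33 to 2.48. Only 1.20% of all genes tested had a smaller SD over the 6 libraries.

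Psmb9 and Psmb8 encode catalytic subunits of the immunoproteasome, which cuts peptides for MHC class I, and Tap1 encodes one chain of the transporter that carries those peptides into the endoplasmic reticulum. The 3 genes stand next to each other on chromosome 17, with 225 bases between Psmb9 and Tap1 and 969 between Tap1 and Psmb8. Psmb9 (34182099 to 34187330, minus strand, gene ID 16912) had 1894, 6740 and 3965 reads across WT libraries, against 1022, 3 and 2605 across Foxm1 HET libraries. Its scaled level was lower in each Foxm1 HET library than in each WT library, at 7.53 ± 0.971 log2 CPM (SD, n = 3) for WT, and 3.28 ± 3.65 (SD, n = 3) for Foxm1 HET. The two-sided exact permutation test gave p = 0.1, the smallest possible. In the fit its log2 fold change was -2.82 (SE 1.98, adjusted p = 0.960 by edgeR's quasi-likelihood test), it was -2.15 without Foxm1 HET replicate 2, and it stayed between -3.81 and -2.15 with each library left out in turn. With library size as the only scaling, and on the deposited normalized values, the genotypes overlapped.

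The neighbours of Psmb9 had values on the other side. Psmb8 had 165, 5 and 670 reads across WT libraries, against 5526, 152 and 1776 across Foxm1 HET libraries (log2 fold change 2.09, SE 2.44, two-sided exact permutation test p = 0.2). Its Foxm1 HET replicates 1 and 3 exceeded every WT library, and replicate 2 did not. Tap1 had 1483, 115 and 21 reads across WT libraries, against 5950, 4 and 2638 across Foxm1 HET libraries (log2 fold change 1.58, SE 2.33). Within a library the neighbours could lie far apart. WT replicate 2 had 844.0 TPM of Psmb9 and 0.413 of Psmb8, and Foxm1 HET replicate 1 had 104 TPM of Psmb9 and 372 of Psmb8. Whether Psmb8 and Psmb9 differed from each other in their response to genotype was not tested.

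**Figure D4:**
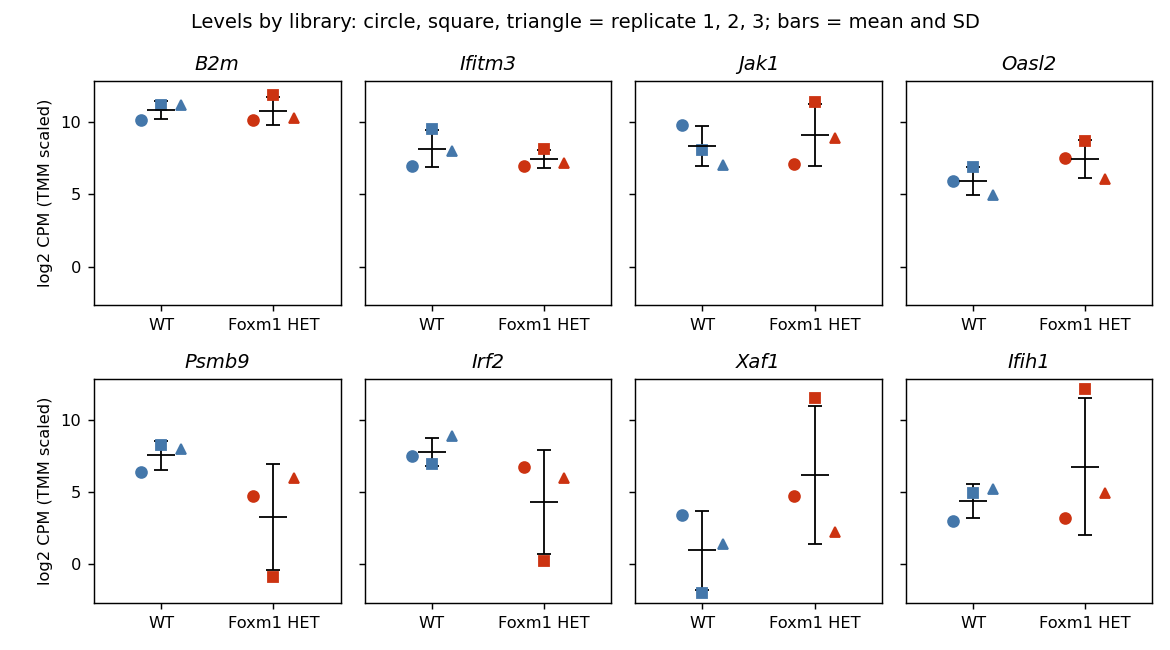
Log2 CPM (TMM scaled) of 8 genes in each library, with WT in blue and Foxm1 HET in red, replicates 1, 2 and 3 as circle, square and triangle, and bars for the mean and SD. B2m overlaps fully between genotypes, Psmb9 and Irf2 have all red points below all blue points, and the red square (replicate 2) lies far from the other red points for Psmb9, Irf2, Xaf1 and Ifih1.

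The results were also computed without Foxm1 HET replicate 2. In that library, 18 of the 40 genes tested (45%) had their lowest level, where 31.1% of all genes had theirs, and 7 (17.5%) had their highest level, where 19.4% of all genes had theirs. Without it, no gene of the set and no gene in all passed an adjusted p of 0.05 by edgeR, with 248 genes in all at an unadjusted p under 0.05. The genotypes then did not overlap for 10 of the 40 genes, against 19.3% of all genes tested. These were Psmb9, Irf2, Ddx58 and Ifnar1, lower in Foxm1 HET, and Ifi35, Psmb8, Eif2ak2, Ifit1, Oas3 and Irf7, higher in Foxm1 HET. The median log2 fold change of the 40 was then -0.33, beside -0.38 over all genes.

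**Figure D5:**
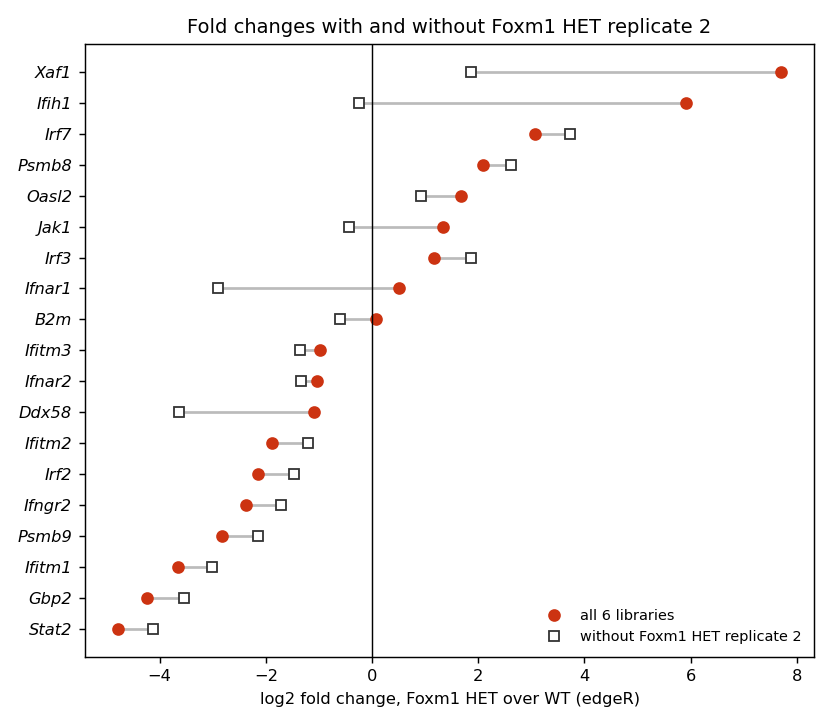
Log2 fold change of Foxm1 HET over WT for the 19 genes chosen by the naming rule, with all 6 libraries (red circles) and without Foxm1 HET replicate 2 (open squares). Xaf1 moves from 7.71 to 1.86 and Ifih1 from 5.91 to -0.24, Ifnar1 moves from 0.50 to -2.90, and most of the others move by less than 1.

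The promoter matches were set beside the genotype difference. The 14 tested genes with an ISRE core had a median log2 fold change of -1.04, with 5 above 0, and the 21 tested genes with a promoter window but no core had a median of 0.61, with 12 above 0. For the GAS core, the medians were -0.31 in the 12 genes with a match and 0.61 in the 23 without. Whether these medians differ was not tested.

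The other genes of the pathway were taken from lists of their own. Of 21 interferon genes, the ligands themselves, 19 were at 0 in all 6 libraries and none could be tested. Ifng had 225 reads in WT replicate 3 and 2 in WT replicate 1. Of 21 further signalling and feedback genes in the table, such as Jak2 and the Socs genes, 18 were tested, 8 above and 10 below 0, and none had an unadjusted p under 0.05. Of 67 further interferon-induced genes, 54 were tested, 25 above and 29 below 0, with a median of -0.37. In this list 1 gene had an unadjusted p under 0.05, none had an adjusted p under 0.05, and 3 had genotypes that did not overlap, all lower in Foxm1 HET. Over all genes tested, 6.03% had such an unadjusted p and 4.55% did not overlap in this direction, so these counts are near or below the background.

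These 3 were Ifi27, Sp100 and H2-T23. Ifi27, a small mitochondrial protein induced by type I interferon, had 1862, 78 and 1590 reads across WT libraries, against 7, 2 and 4 across Foxm1 HET libraries. In the fit the log2 fold change was -8.33 (SE 3.49, unadjusted p = 0.0170, adjusted p = 0.593 by edgeR's quasi-likelihood test). All Foxm1 HET libraries were at or near the floor, replicates 1 and 3 as well as replicate 2. Sp100, the nuclear body protein, had 7988, 10024 and 5551 reads across WT libraries, against 6749, 1406 and 2393 across Foxm1 HET libraries (log2 fold change -1.35). H2-T23, which encodes the nonclassical MHC class I protein Qa-1, had 2334, 142 and 684 reads across WT libraries, against 208, 31 and 81 across Foxm1 HET libraries (log2 fold change -3.66).

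Ly6a, which encodes Sca-1, is both interferon-induced and one of the proteins used to sort the cells. Its level was 16.4, 0.488 and 0.225 TPM in WT and 225, 0.364 and 178 in Foxm1 HET. Foxm1 HET replicates 1 and 3 exceeded all WT libraries, and replicate 2 was within the WT range.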

How the data were processed

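The files were used as the authors deposited them: whole-number counts of reads on 27179 genes, with exon positions and gene lengths, and log2 normalized values of 12179 genes. According to the study's methods, STAR 2.7.2b placed single reads of 50 bases on GRCm38. The labels name a stranded kit and the study's methods another kit. The counting program and its use of strand and of reads with several positions are not given in the sources used here. The submitters' processing notes also list limma.

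Libraries were grouped by the genotype labels. Counts were fitted with edgeR 4.0.16 in R 4.3.3 (filterByExpr, TMM scaling, quasi-likelihood test, Benjamini-Hochberg adjustment over 8195 genes, biological coefficient of variation 1.66). The SE is the absolute log2 fold change over the root of the F statistic, and log2 CPM used a prior count of 2. TPM was computed from the deposited counts and lengths. The alternatives tried were scaling by RLE, by the upper quartile or by library size, 2 other filters, a replicate block, each library left out, DESeq2 1.42.0, limma-voom, and limma 3.58.1 on the deposited log2 values.

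The rule for the 45 genes uses symbols alone, but the set and the other lists were put together with earlier results of these data known. The 19 genes named with values in each library were those with an unadjusted p under 0.05, with genotypes that did not overlap, among the 3 most abundant of a role group, or among the 3 largest changes in either direction. Values of others were added after they were seen.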

Additional observations from a re-analysis of the deposited data

How the results depend on the processing

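edgeR's quasi-likelihood test put 27 genes in all past an adjusted p of 0.05, a number that was 10 with RLE, 43 with upper-quartile and 7 with library-size scaling, 36 without a filter, 0 with at least 10 counts in every library (157 at an unadjusted p under 0.05), 0 with the replicate block (108), 194 with DESeq2 (which gave no p to 1848 genes), 4 with limma-voom and 0 with limma on the normalized table (576). With each library left out in turn it ran from 0 to 25. Of the interferon response genes, 1 had such a p, 2 (Xaf1 and Ifih1) with upper-quartile scaling, 1 without a filter and 0 in each of the other fits just named, and from 0 to 1 with a library left out. Those at an unadjusted p under 0.05, 2 in the edgeR fit, were 4 without a filter (with Mx2 and Oasl1 added), 1 with at least 10 counts in every library (Ifih1), 1 with DESeq2 (Stat2), 1 with limma-voom (Ddx58), 2 other genes on the normalized table (Ifit3 and Psmb8), and from 1 to 3 with a library left out. Those whose genotypes did not overlap, 2 in the edgeR fit, were 1 with upper-quartile scaling (Psmb9), 1 with library size only (Ddx58), 4 without a filter (with Ifit3 and Oasl1 added), 0 with at least 10 counts in every library, 2 other genes on the normalized table (Ifit3 and Oasl1, with Psmb9 and Irf2 overlapping), and from 3 to 10 with a library left out. The replicate numbers come from the titles, and same-numbered libraries did not deviate together (correlations of 0.02, -0.03 and -0.07). With the numbers as a replicate block, 0 genes of the set had an adjusted or an unadjusted p under 0.05, and the log2 fold changes of Xaf1 and Ifih1 were 2.67 and 1.51. The median log2 fold change of the set, -0.17 in the edgeR fit, ran from -0.65 to 0.63 over the alternatives. It was above 0 with upper-quartile scaling (0.23), with the replicate block (0.31) and with limma-voom (0.63), among others. Every shift was below the within-genotype SD of the library medians, 2.26. That SD rested on Foxm1 HET replicate 2, with a median of -0.70 log2 CPM against between 4.73 and 5.12 elsewhere, so it cannot show that the median was stable.

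Of the 19 named genes, 10 kept the sign of the log2 fold change in all alternatives that gave them an adjusted p. DESeq2 fold changes without an adjusted p, such as that of Xaf1, were left out of this count. Ifnar1 was -0.40 with library size only, -0.058 with at least 10 counts in every library, -1.82 with the replicate block, -2.39 with limma-voom and -1.69 on the normalized table. B2m was -0.018 with at least 10 counts in every library, -0.077 with the replicate block and -0.44 with limma-voom. Gbp2 was 0.039 with the block and 0.49 with limma-voom, and Jak1 was -0.0011 with limma-voom. The signs of Ifnar1 (-2.90), Jak1 (-0.43), Ifih1 (-0.24) and B2m (-0.61) turned without Foxm1 HET replicate 2, those of Ifngr2 (1.08) and B2m (-0.16) without WT replicate 1, that of Ifitm3 (0.033) without WT replicate 2, those of Ifitm1 (0.93) and Gbp2 (8.81) without WT replicate 3, and that of Irf3 (-0.88) without Foxm1 HET replicate 3. Over the 6 fits with a library left out, the log2 fold change ran from -2.90 to 1.03 for Ifnar1, from -4.86 to 1.08 for Ifngr2, from -0.43 to 2.41 for Jak1, from -0.88 to 6.25 for Irf3, from -4.12 to 0.93 for Ifitm1, from -1.35 to 0.033 for Ifitm3, from -0.24 to 6.45 for Ifih1, from -6.57 to 8.81 for Gbp2 and from -0.61 to 0.37 for B2m. For Xaf1 the adjusted p was 0.125 with RLE, 0.224 with library size only, 0.9995 with limma-voom and 0.930 on the normalized table, and DESeq2 gave neither Xaf1 nor Ifih1 a p. The cause of these changes was not tested. The spread between libraries, at a median SE of 2.33, limits what can be told apart, and depth is a further limit for genes at 3 reads or fewer.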

Other observations

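The remaining marker lists were at low levels. Erythroid markers summed to between 198 and 246 TPM in WT and to between 366 and 563 TPM in Foxm1 HET, with Hba-a1 at 0 in all libraries. T and NK cell markers summed to between 5.30 and 40.4 TPM in WT and to between 34.4 and 123 TPM in Foxm1 HET, with Cd3g and Cd3d at 0 throughout. Megakaryocyte markers summed to at most 26.6 TPM in any library. Cd48, by whose absence the cells were sorted, had 221, 6608 and 1 reads across WT libraries, against 1285, 5 and 22 across Foxm1 HET libraries. Flt3, a gene of multipotent progenitors that LT-HSCs hold at a low level, had 1480, 1580 and 336 reads across WT libraries, against 1540, 6 and 12648 across Foxm1 HET libraries. For both genes the genotypes overlapped.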
